A study of Mus musculus with 28 samples.

Results

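The interferon response genes are genes that cells switch on when they receive an interferon signal, the alarm cytokine of virus infection. Of the 56748 genes in the count table of this mouse kidney study, 39 were followed as interferon response genes. They were found by a fixed list of symbols matched through their Ensembl identifiers. The matching uses no measured values, but the list was chosen with earlier results of these data known. All 39 were present, and all 39 passed the filter on low counts, as did 17573 genes of the whole table. By role they were 5 sensors of viral nucleic acid (Ddx58, named Rigi in newer annotation, Ifih1, Dhx58, Zbp1 and Eif2ak2), 4 transcription factors (Irf1, Irf7, Irf9 and Stat2), 4 IFIT genes (Ifit1, Ifit2, Ifit3 and Ifit3b) and 6 genes of the oligoadenylate synthetase family (Oas1a, Oas1g, Oas2, Oas3, Oasl1 and Oasl2). A further 4 genes belong to ISG15 conjugation and ubiquitin ligation (Isg15, Usp18, Trim25 and Trim30a), 3 to ADP-ribosylation (Parp9, Parp14 and Dtx3l), 5 are direct antiviral effectors (Rsad2, Cmpk2, Mx1, Mx2 and Bst2), 3 are immunity-related GTPases (Irgm1, Igtp and Ifi47) and 5 are other induced genes (Rtp4, Ifi44, Ifi27, Ifi35 and Xaf1).

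Type I and type III interferons signal through Janus kinases to STAT2, which with IRF9 acts at the interferon-stimulated response element (ISRE) in target promoters. Interferon gamma, made mainly by T and natural killer cells, acts at the gamma-activated site (GAS), and Irf1, Irgm1, Igtp and Ifi47 are among its classical targets. In uninfected tissue the target genes are thought to be kept at a low resting level by small amounts of interferon and their own transcription factors. This was not tested here for the kidney.

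The study compared kidneys of mice with wild-type aquaporin-3 (WT), an acetylation mimetic of this water and glycerol channel of the collecting duct (Q) and a mimetic of its deacetylated form (R), in males and in females. There were 5 libraries in each group except female R, which had 3, giving 28 libraries in 6 groups. All mice were untreated and shared standard housing with a light and dark cycle. Kidneys were taken between 2 and 5 h of zeitgeber time (hours after lights on), freed of the capsule and snap frozen, and polyadenylated RNA was sequenced. Age, strain and the breeding of the Aqp3 lines are not given in the sources used here. That replicates were separate animals is not stated in the labels, so p-values measure the spread between libraries, which may in part be technical. Levels below are CPM, the counts of a gene scaled to the size of its library, and library totals ran from 14825417 to 21403804 counts. A gene is called changed where edgeR's quasi-likelihood test gave an adjusted p under 0.05 over all 17573 tested genes. In whole kidney, fewer cells of a type and less RNA per cell cannot be told apart.

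Of the 28 libraries, 3 stood apart. The library labelled female WT replicate 2 held 0.515 CPM of Xist, the RNA that coats the inactive X. The remaining 12 female libraries held 214 to 435 CPM of it, and the males 0.470 to 2.01 CPM. Its summed Y-linked RNA was 0.468 CPM, where males had 121 to 164 CPM and the remaining females 0.782 to 1.47 CPM, so it carried neither the female nor the male mark. Results that rest on it are given with and without it. Mitochondrial RNA made up 7.74% of the counts in male Q replicate 4 and 3.94% in female Q replicate 5. The remaining 26 libraries lay between 9.56% and 12.1%.

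Promoter sequence was matched by symbol to RefSeq windows on GRCm38.p6, each running from 250 bases before to 50 bases after a transcription start. This is an older build than the GRCm39 of the counts, so no coordinate was carried between the builds. Windows were found for 29 of the 39 genes, 33 windows in all. The ISRE was searched as GAAANNGAAA on either strand and the GAS as TTCNNNGAA. The ISRE letters were in 17 of the 33 windows (51.5%), against 3.44% of all 32851 windows, and the GAS letters were in 7 (21.2%), against 8.3%. The ISRE letters were found for Ddx58, Ifih1, Eif2ak2, Stat2, Ifit1, Ifit3, Ifit3b, Oas1a, Oas1g, Oas3, Isg15, Trim30a, Rsad2, Bst2, Irgm1 and Igtp. The GAS letters were found for Irf1, Ifit2, Eif2ak2, Oas1a, Bst2, Igtp and Ifi35, and in the Bst2 window the 2 motifs shared bases. A match is a description of letters and not a measured binding site. The first bases from the start were looked up in annotated transcripts. Among windows with a match, they were not found for Ifit3, Ifit3b, Stat2, Oas1a, Bst2 and 1 window of Trim30a. Positions relative to the start are less certain there. The stretches below lie upstream of the window's start, inside the window, and are written 5′ to 3′ on the gene's strand, with the motif letters in capitals. Ifit1, Ifit3 and Ifit3b are shown as the members with ISRE letters of the role with the largest median difference between the sexes. Ifit2, of the same role, had no ISRE match and 1 GAS match and is not shown. Isg15 is shown as the family's namesake, Rsad2 because it did not follow the others, and Irf1, Irgm1 and Igtp because they were far higher in 1 library.
Ifit1, chr19:34640765-34640833, plus strand, 2 ISRE matches: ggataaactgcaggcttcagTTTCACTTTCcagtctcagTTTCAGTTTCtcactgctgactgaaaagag
Ifit3, chr19:34583353-34583436, plus strand, 2 ISRE matches: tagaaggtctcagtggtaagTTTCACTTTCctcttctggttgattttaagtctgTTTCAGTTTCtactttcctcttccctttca
Ifit3b, chr19:34607749-34607832, plus strand, 2 ISRE matches: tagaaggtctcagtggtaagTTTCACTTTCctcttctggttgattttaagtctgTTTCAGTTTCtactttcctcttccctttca
Isg15, chr4:156200855-156200916, minus strand, 3 overlapping ISRE matches: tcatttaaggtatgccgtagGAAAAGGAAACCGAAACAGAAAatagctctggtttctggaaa
Rsad2, chr12:26456543-26456592, minus strand, 1 ISRE match: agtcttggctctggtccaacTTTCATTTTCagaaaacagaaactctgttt
Irgm1, chr11:48871421-48871470, minus strand, 2 overlapping ISRE matches: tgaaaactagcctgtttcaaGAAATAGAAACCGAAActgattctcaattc
Igtp, chr11:58199491-58199551, plus strand, 1 GAS match followed by 1 ISRE match: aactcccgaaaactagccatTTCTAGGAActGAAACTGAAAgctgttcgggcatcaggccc
Irf1, chr11:53769904-53769952, plus strand, 1 GAS match: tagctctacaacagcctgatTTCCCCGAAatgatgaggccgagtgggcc
The stretches of Ifit3 and Ifit3b were identical over all 84 bases. These genes are near-identical neighbours, and fragments that fit several genes were left out of the counts by the counter's default, so the split of reads between them is uncertain. The same limit holds for Oas1a and Oas1g and for other members with close copies.

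The resting level of the genes spanned a wide range. Per kilobase of exon, Ifi27, a small interferon-induced membrane protein, had the highest mean at 38.4 CPM per kb, followed by Bst2, which tethers budding virus to the cell, at 25.3 and Ifit3, which binds other IFIT proteins, at 14.7. Trim25, a ubiquitin ligase that aids RIG-I, stood at 11.001, the GTPase Igtp at 10.4 and Rsad2, the radical enzyme viperin, at 10.2 CPM per kb. At the other end were Oas3 at 0.0652, Mx1 at 0.181 and Mx2 at 0.305 CPM per kb. Oas3 was counted with 1 to 26 fragments per library and Mx1 with 2 to 42, so differences in these genes were measured with little depth.
The transcription factors had means of 5.39 (Irf1), 4.08 (Irf7), 3.97 (Irf9) and 3.34 (Stat2) CPM per kb. Among the sensors, Eif2ak2, the kinase PKR, and Ddx58, the RNA helicase RIG-I, were at 2.84 and 2.66 CPM per kb. Ifih1, the helicase MDA5, was at 1.66, Dhx58, its regulator LGP2, at 0.819, and Zbp1, which senses Z-form nucleic acid, at 0.716 CPM per kb. Between these bounds lay the GTPases Irgm1 (8.03) and Ifi47 (3.17), Ifi35 (9.24), Cmpk2 (5.78), Isg15 (5.09), Ifit3b (4.22), Ifit2 (3.98), Rtp4 (3.76), Parp9 (3.71) and Ifit1 (2.15 CPM per kb). The lower ranks were held by Ifi44 (2.13), Dtx3l (1.91), Oas1a (1.61), Parp14 (1.58), Trim30a (1.44), Oasl2 (1.42), Usp18 (1.39), Xaf1 (1.03), Oasl1 (0.871), Oas1g (0.376) and Oas2 (0.357 CPM per kb). The median spread within groups, as the SD of log2 CPM, was 0.319 over the 39 genes and 0.270 over all tested genes. These medians were 0.257 and 0.271 without the library labelled female WT replicate 2.

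**Figure D1:**
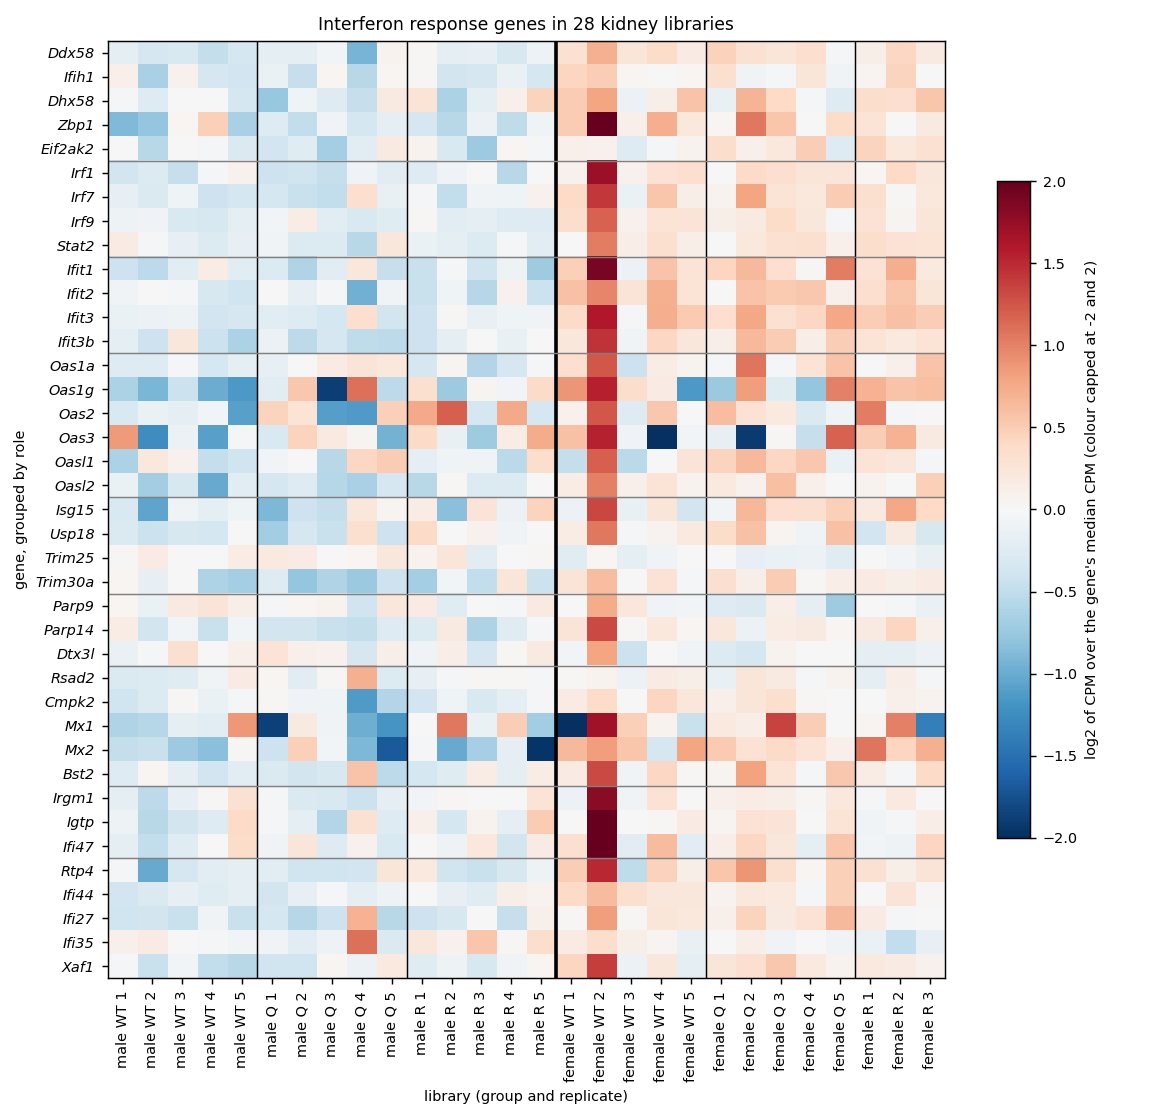
Log2 of each library's CPM over the gene's median across the 28 libraries (colour, capped at -2 and 2) for the 39 genes in rows, grouped by role, and the libraries in columns, grouped by sex and genotype. Female libraries are on the right of the thick line, and the column labelled female WT replicate 2 is the highest of all 28 libraries in 33 of the 39 genes.

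The library labelled female WT replicate 2 had by far the highest levels of this set. It was the highest of all 28 libraries for 33 of the 39 genes, while it was the highest for 5.65% of all tested genes. Against the mean of the other 4 female WT libraries it was higher for 39 of 39 genes (47.2% of all tested genes) and more than 2 times higher for 20 of 39 (3.01% of all tested genes). The median ratio was 2.18 over the 39 genes and 0.989 over all tested genes. These values describe 1 library and have no replicate.
The immunity-related GTPases, which attack the vacuoles of intracellular parasites and bacteria, stood out most. Igtp was at 106 CPM there, while the remaining 12 females ranged from 16.9 to 21.8 CPM. This was 5.79 times the mean of the other 4 female WT libraries, the ratio given for the genes that follow. Ifi47 was at 30.2 CPM against 5.72 to 10.4 CPM, a ratio of 4.002. Irgm1 was at 151 CPM against 39.9 to 52.6 CPM, a ratio of 3.42. In all 3 no other female library came near this one. Irf1, the transcription factor whose stretch above holds the GAS letters, was at 65.1 CPM against 19.9 to 26.2 CPM, a ratio of 2.84. The sensor Zbp1 had a ratio of 2.99, Ifit1, which binds viral RNA lacking cap methylation, one of 2.97, and Isg15, a ubiquitin-like protein, one of 2.66. Mx1 and Oas3 had ratios of 3.803 and 3.27 at low counts.
Other members had ratios near 1. Rsad2 had a ratio of 1.01, Eif2ak2 1.08, Cmpk2, a nucleotide kinase encoded beside Rsad2, 1.11, and Trim25 1.12. These 4 genes, together with Mx2 and Ifi35, were the 6 for which the library was not the highest of all.
By their sums, some lists of the wider pathway were high in this library and others were not. Summed antigen presentation genes were at 3155 CPM where the remaining females had 1250 to 1703 CPM, and other induced antiviral genes at 718 CPM against 388 to 443 CPM. Summed other transcription factors were at 276 CPM against 199 to 229.99 CPM, and the summed 5 tested chemokines at 25.2 CPM against 7.07 to 12.6 CPM. Inside the range of the other females lay the sums of the receptors and Janus kinases (326 CPM against 284 to 339 CPM) and the upstream sensors and adaptors (211 CPM against 187 to 216 CPM). So did that of the genes that restrain the pathway (238 CPM against 215 to 239 CPM). Single genes were above all other females. Socs1 was at 3.18 against 0.946 to 2.03, Socs3 at 8.29 against 2.61 to 5.87 and Ptpn1 at 44.99 against 34.6 to 42.7 CPM. Ptpn6, Ptpn11, Pias1 and Pias4 were inside the range. Ifnar2 (32.3 against 24.7 to 30.6 CPM) and Il10rb (38.1 against 27.9 to 36.6 CPM) were above it and the other receptors and kinases inside. Most upstream sensors and adaptors were inside it, but Myd88 was above (20.5 against 12.9 to 19.02 CPM). Cxcl10, a chemokine that draws T cells, was at 17.3 CPM against 3.61 to 7.75 CPM. Cxcl11, another of them, was at 0.328 CPM, within the 0 to 1.26 CPM of the other females.
Some markers of immune cells were also higher there. The summed 7 macrophage markers were at 166 CPM where the remaining females had 67.2 to 104 CPM, and the summed T and NK cell markers (8 of 9 tested) at 12.8 CPM against 5.44 to 7.91 CPM. The B and plasma cell markers (11.1 CPM against 5.12 to 13.6 CPM), the neutrophil markers (3 of 6 tested, 1.69 CPM against 0.566 to 2.59 CPM) and the 9 kidney segment markers (12224 CPM) lay within the range of the other female libraries. The summed 4 plasmacytoid dendritic cell markers were at 98.7 CPM against 50.8 to 69.9 CPM, above all 27 other libraries. Of these, Irf8 was at 45.8 CPM against 27.1 to 33.1 CPM and Bst2, also 1 of the 39 genes, at 52.4 CPM against 20.1 to 36.7 CPM, while Siglech was at 0.281 CPM and Ccr9 at 0.234 CPM, both within the range of the other females. Ly6g, which marks neutrophils, was at 0, but it had only 5 counts over all 28 libraries, with a median of 0 in both sexes. The part of macrophages, T cells and plasmacytoid dendritic cells in the high interferon genes was not tested.

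**Figure D2:**
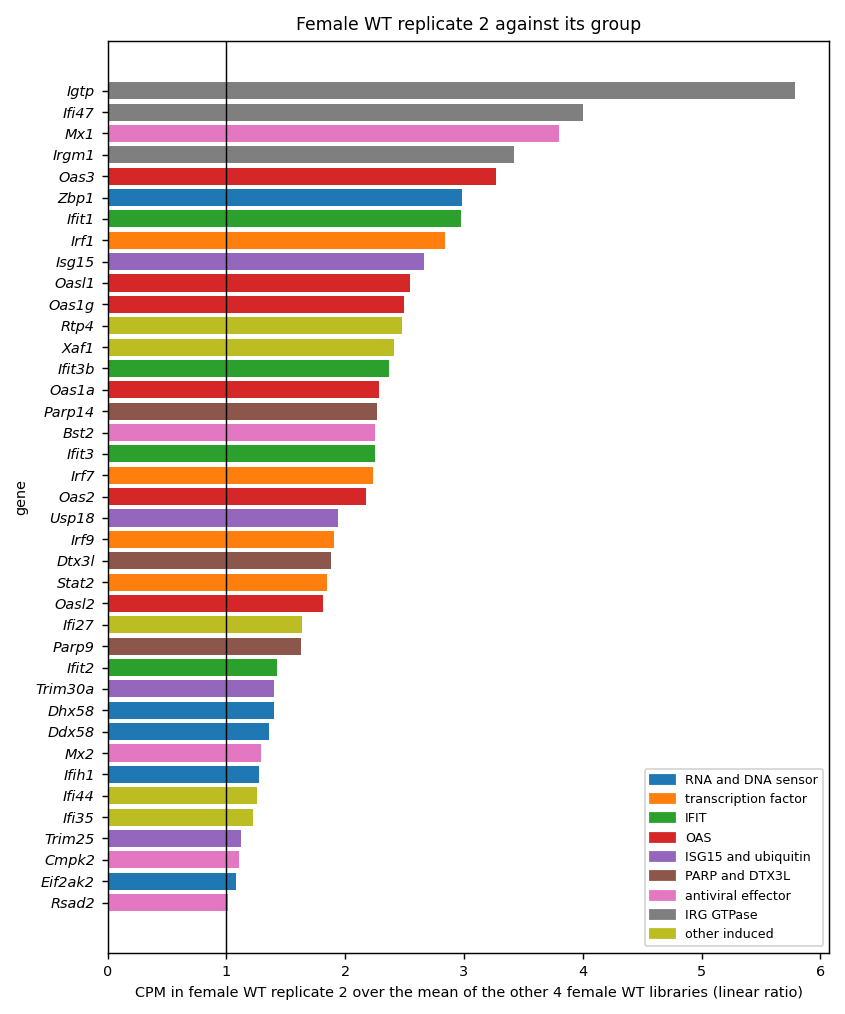
Ratio of the CPM in the library labelled female WT replicate 2 to the mean of the other 4 female WT libraries, on a linear axis from 0, for the 39 genes, coloured by role. All bars exceed 1, from 1.01 for Rsad2 to 5.79 for Igtp.

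The sexes were compared over the 3 genotypes, 13 female against 15 male libraries. In female kidney 27 of the 39 genes were higher and 1 was lower, where 21.3% of all tested genes were higher and 18.9% lower. The median log2 fold change of the 39 genes was 0.46, against 0.04 over all tested genes. Sensors, transcription factors and IFIT genes were higher in every member, whereas the immunity-related GTPases had none that passed. Without the library labelled female WT replicate 2, 25 genes were higher (19.9%) and 1 lower (18.8%), with a median of 0.35. Without all 3 libraries that stood apart 26 were higher and 2 lower, with a median of 0.37. There 3904 of 17381 genes were higher and 3830 lower. For none of the 39 genes were the 13 female libraries all above or all below the 15 male ones, while 1.94% of all tested genes were wholly higher and 3.2% wholly lower.

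All 5 sensors rose in females. Ddx58 was at 15.8, 14.3, 14.7, 13.1 and 14.2 CPM in the male WT libraries, at 16.05, 15.97, 17.6, 9.52 and 19.1 CPM in male Q and at 18.5, 16.1, 16.2, 14.5 and 16.9 CPM in male R. In females it was at 22.4, 29.7, 21.5, 23.4 and 20.5 CPM in WT, at 25.1, 22.5, 21.4, 23.05 and 17.8 CPM in Q and at 19.7, 24.2 and 20.6 CPM in R. The ranges of the sexes met only through female Q replicate 5 and male Q replicate 5 and male R replicate 1, and the lowest value was that of male Q replicate 4. Its log2 fold change was 0.53 ± 0.08 (SE), a 1.44-fold difference (adjusted p = 3.76e-06). Ddx58 was also called in WT (0.70 ± 0.13, adjusted p = 2.74e-04) and in Q (0.49 ± 0.13, adjusted p = 0.00721).
Zbp1 had the largest difference among the sensors. Its lowest, median and highest values were 1.21, 1.76 and 3.07 CPM in males and 2.21, 2.69 and 8.801 CPM in females, a log2 fold change of 0.78 ± 0.18 (adjusted p = 8.57e-04). Ifih1 was at 8.79, 10.95 and 14.7 CPM in males and 13.1, 14.2 and 19.3 CPM in females by the same 3 measures (0.37 ± 0.09, adjusted p = 0.00147). The groups overlapped for both genes. Dhx58 (0.44 ± 0.13, adjusted p = 0.00802) and Eif2ak2 (0.36 ± 0.09, adjusted p = 0.00254), the kinase that halts translation on double-stranded RNA, were higher as well.

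All 4 transcription factors rose too. Irf9, the DNA-binding partner of STAT2, was at 18.9, 19.4, 16.5, 16.2 and 17.6 CPM in male WT, 19.5, 22.5, 17.4, 16.5 and 17.1 CPM in male Q and 20.6, 17.3, 17.8, 16.9 and 16.99 CPM in male R. Its female levels were 25.8, 45.8, 21.5, 24.6 and 24.2 CPM in WT, 22.02, 23.1, 26.04, 23.8 and 19.97 CPM in Q and 24.7, 21.2 and 24.1 CPM in R. The highest male value, in Q replicate 2, exceeded the lowest female ones, and the highest female value was in the library labelled WT replicate 2. The log2 fold change was 0.46 ± 0.09 (adjusted p = 7.06e-05), and in WT alone 0.68 ± 0.14 (adjusted p = 7.62e-04), or 0.43 without that library (adjusted p = 0.003903).
Irf7, which amplifies the type I interferon response, stood at 12.6, 11.5, 13.3, 10.5 and 10.99 CPM in male WT, 10.999, 10.3, 9.98, 17.8 and 12.7 CPM in male Q and 13.8, 9.99, 13.4, 13.3 and 14.9 CPM in male R. In females the values were 18.6, 37.6, 12.9, 20.7 and 15.2 CPM in WT, 14.8, 24.2, 17.03, 16.4 and 19.97 CPM in Q and 17.6, 14.4 and 16.3 CPM in R. The ranges overlapped in each genotype, in Q only through male replicate 4, in WT through female replicate 3 and in R through female replicate 2. The log2 fold change was 0.57 ± 0.12 over genotypes (adjusted p = 4.14e-04) and 0.83 ± 0.20 in WT (adjusted p = 0.00421), or 0.50 in WT without the library labelled female WT replicate 2 (adjusted p = 0.0395).
Irf1 had its lowest, median and highest values at 13.5, 16.7 and 21.1 CPM in males and 19.9, 23.5 and 65.1 CPM in females (0.60 ± 0.13, adjusted p = 4.75e-04). For Stat2 they were 12.8, 16.7 and 21.9 CPM and 18.6, 22.8 and 38.3 CPM (0.43 ± 0.09, adjusted p = 2.42e-04). The male and female ranges overlapped for both.

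The IFIT genes had the largest median sex difference of the 9 roles, at a log2 fold change of 0.71 (0.63 without the library labelled female WT replicate 2). Ifit3 was at 19.6, 19.8, 20.04, 16.5 and 17.04 CPM in male WT, 18.3, 18.1, 16.8, 27.1 and 16.7 CPM in male Q and 16.1, 21.9, 19.4, 20.4 and 20.5 CPM in male R. In females it was at 28.02, 65.02, 21.1, 35.5 and 30.7 CPM in WT, 27.02, 36.7, 26.6, 28.8 and 36.6 CPM in Q and 30.1, 32.3 and 30.4 CPM in R. Only male Q replicate 4 and male R replicate 2 exceeded the lowest female value, that of WT replicate 3. The fold difference was 1.698 (log2 0.76 ± 0.12, adjusted p = 3.53e-06).
Ifit3 was called in each genotype, at 0.96 ± 0.19 in WT (adjusted p = 5.47e-04), 0.68 ± 0.19 in Q (adjusted p = 0.00931) and 0.65 ± 0.22 in R (adjusted p = 0.0398). The WT value was 0.62 without the library labelled female WT replicate 2. The call in R was lost without any 1 of male R replicates 1, 3, 4 and 5 or of the 3 female R libraries, where adjusted p reached 0.131.
Ifit2, which binds viral RNA and promotes cell death, was at 13.5, 14.2, 13.8, 11.3 and 10.8 CPM in male WT, 14.1, 12.7, 13.8, 7.28 and 13.4 CPM in male Q and 10.5, 13.4, 9.58, 14.99 and 10.5 CPM in male R. Its female values were 21.2, 27.99, 16.9, 23.1 and 17.2 CPM in WT, 14.2, 21.2, 20.4, 20.7 and 15.2 CPM in Q and 17.8, 20.9 and 16.8 CPM in R. Within each genotype every female library was above every male one, and across genotypes only female Q replicate 1 fell below the highest males, R replicate 4 and WT replicate 2. The log2 fold change was 0.65 ± 0.10 (adjusted p = 3.71e-06), with 0.74 in WT (adjusted p = 0.00173), 0.58 in Q (adjusted p = 0.0108) and 0.65 in R (adjusted p = 0.0176). In R the call was lost without male R replicate 3 (0.57, adjusted p = 0.0537) or female R replicate 2 (0.56, adjusted p = 0.114).
Ifit3b, the close copy of Ifit3, was at 6.94, 5.899, 9.199, 5.82 and 5.05 CPM in male WT, 7.24, 5.49, 6.27, 5.54 and 5.47 CPM in male Q and 5.897, 6.98, 7.79, 7.09 and 7.96 CPM in male R. In females its levels were 9.26, 21.5, 7.47, 10.5 and 9.18 CPM in WT, 8.55, 12.4, 11.2, 8.66 and 11.02 CPM in Q and 9.52, 9.02 and 9.49 CPM in R. All Q and R females were above all males of their genotype, while in WT male replicate 3 reached the female range. The log2 fold change was 0.66 ± 0.12 (adjusted p = 6.04e-05), with 0.81 in WT (adjusted p = 0.00463) and 0.78 in Q (adjusted p = 0.00499). The WT value was 0.45 without the library labelled female WT replicate 2 (adjusted p = 0.0502).
Ifit1 had the second largest fold change of the 39 genes. Its lowest, median and highest values were 3.01, 4.04 and 5.72 CPM in males and 4.53, 6.59 and 18.3 CPM in females, a 1.79-fold difference (log2 0.84 ± 0.16, adjusted p = 9.23e-05), and the ranges overlapped.

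**Figure D3:**
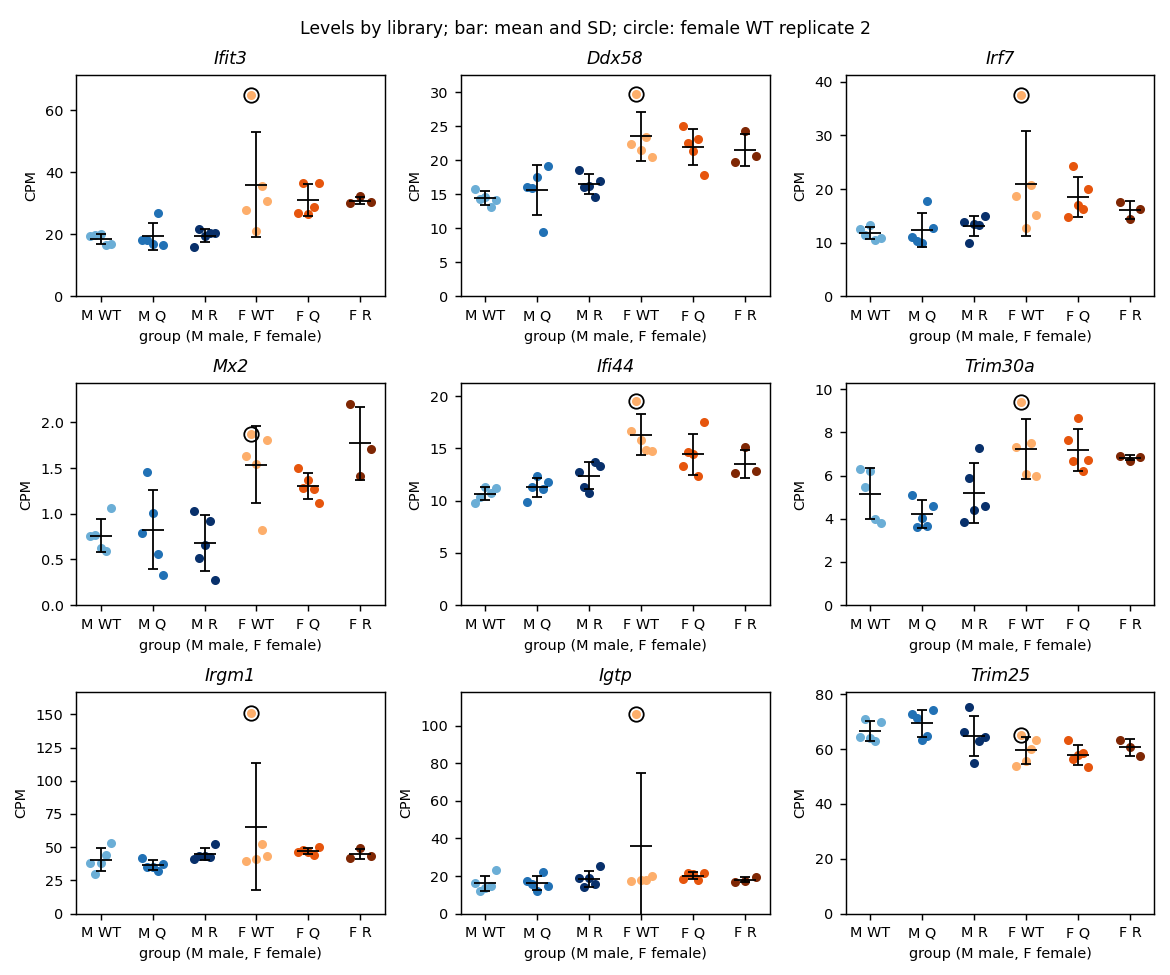
CPM of 9 genes in each library (points), with the mean and SD of each group (bars, drawn from 0 upward where the SD exceeds the mean), for male (M) and female (F) WT, Q and R kidneys. The library labelled female WT replicate 2 is circled, and Ifit3, Ddx58, Irf7, Mx2, Ifi44 and Trim30a are higher in females, Trim25 is lower, and Irgm1 and Igtp are set apart by the circled library.

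Of the 6 OAS genes, whose active enzymes make the messenger that switches on the ribonuclease RNase L, 3 rose. Oasl2, a ubiquitin-like relative, was at 8.398, 5.66, 7.36, 4.58 and 7.99 CPM in male WT, 7.18, 7.703, 6.21, 5.85 and 7.26 CPM in male Q and 6.26, 9.33, 7.64, 7.61 and 9.25 CPM in male R. Female values were 10.2, 18.5, 9.91, 11.1 and 9.68 CPM in WT, 10.6, 9.78, 14.01, 9.93 and 9.18 CPM in Q and 9.62, 9.26 and 12.8 CPM in R. WT and Q females were wholly above males of the same genotype, and only in R did a female library fall within the male range. Females exceeded males by 0.62 ± 0.11 on the log2 scale (adjusted p = 2.84e-05), with 0.80 in WT (adjusted p = 0.001597) and 0.65 in Q (adjusted p = 0.00842).
Oas1a also rose (0.46 ± 0.15, adjusted p = 0.0113). Oas1g, at 0.212, 0.581 and 1.68 CPM (lowest, median and highest) in males and 0.351, 1.17 and 2.29 CPM in females, was called with a wide error (0.69 ± 0.27, adjusted p = 0.0379), and the call was lost without the library labelled female WT replicate 2 (0.55, adjusted p = 0.09298). Oas2 (0.29 ± 0.21), Oas3 (0.29 ± 0.31) and Oasl1 (0.33 ± 0.16) did not pass (adjusted p = 0.296, 0.481 and 0.112). Their 95% intervals ran to 0.72, 0.92 and 0.66, so a difference as large as that of the IFIT genes was within or near the error.

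Among the genes of ISG15 conjugation and ubiquitin ligation 3 rose and 1 fell. Trim30a, which dampens NF-kB signalling, was at 6.29, 5.49, 6.197, 3.99 and 3.82 CPM in male WT, 5.11, 3.599, 4.04, 3.67 and 4.61 CPM in male Q and 3.83, 5.89, 4.38, 7.27 and 4.57 CPM in male R. In females it was at 7.305, 9.41, 6.08, 7.49 and 5.97 CPM in WT, 7.67, 6.67, 8.68, 6.23 and 6.71 CPM in Q and 6.89, 6.69 and 6.88 CPM in R. Q females lay wholly above Q males, while male WT replicates 1 and 3 and male R replicate 4 reached the female range of their genotype. On the log2 scale the difference was 0.55 ± 0.10 over genotypes (adjusted p = 8.64e-05) and 0.77 ± 0.18 in Q (adjusted p = 0.00139).
Trim25 was the 1 gene that was lower in females. Its male levels were 64.6, 71.1, 63.95, 63.02 and 70.04 CPM in WT, 72.95, 71.3, 63.4, 64.9 and 74.3 CPM in Q and 66.3, 75.3, 54.8, 62.8 and 64.6 CPM in R. The female levels were 53.7, 65.1, 55.7, 60.1 and 63.2 CPM in WT, 63.3, 56.3, 57.9, 58.5 and 53.3 CPM in Q and 63.5, 60.9 and 57.4 CPM in R. In Q all females were below all males, and in WT and R the ranges overlapped. The change was small, at -0.17 ± 0.05 on the log2 scale over genotypes (adjusted p = 0.00632) and -0.26 ± 0.08 in Q (adjusted p = 0.0192), the latter lost with no filter on low counts (adjusted p = 0.184).
Isg15 had its lowest, median and highest values at 1.71, 3.29 and 4.84 CPM in males and 2.76, 4.41 and 8.94 CPM in females (0.56 ± 0.17, adjusted p = 0.00776). Usp18, the protease that removes ISG15 and blocks the type I receptor, was called at 0.32 ± 0.12 (adjusted p = 0.0377) and not without the library labelled female WT replicate 2 (0.23, adjusted p = 0.0949).

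The ADP-ribosylation genes were split. Parp14 rose (0.50 ± 0.11, adjusted p = 4.83e-04), with lowest, median and highest values of 9.42, 11.9 and 16.2 CPM in males and 13.3, 16.4 and 35.95 CPM in females. Parp9 (-0.07 ± 0.09, adjusted p = 0.567) and Dtx3l (-0.09 ± 0.10, adjusted p = 0.486), which form a complex, had negative estimates and did not pass. Without the 3 libraries that stood apart Dtx3l was lower in females (-0.09 became -0.22, adjusted p = 0.0167).

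Of the 5 antiviral effectors 3 rose. Mx2, a dynamin-like GTPase, had the largest fold of the 39 genes but low levels, at 0.754, 0.767, 0.629, 0.588 and 1.06 CPM in male WT, 0.786, 1.45, 1.01, 0.5599 and 0.325 CPM in male Q and 1.03, 0.518, 0.662, 0.923 and 0.269 CPM in male R. In females it was at 1.64, 1.87, 1.54, 0.819 and 1.81 CPM in WT, 1.496, 1.28, 1.37, 1.27 and 1.12 CPM in Q and 2.198, 1.41 and 1.71 CPM in R. Females and males were apart in R only, and female WT replicate 4 and male Q replicate 2 each lay in the other sex's range. The fold difference was 2.03 (log2 1.02 ± 0.19, adjusted p = 7.41e-05), with 1.39 ± 0.36 in R (adjusted p = 0.00717), where the call was lost without female R replicate 1 (1.21, adjusted p = 0.0626).
Cmpk2 (0.37 ± 0.09, adjusted p = 0.00104) and Bst2 (0.47 ± 0.13, adjusted p = 0.005797) rose as well. Rsad2, which adjoins Cmpk2 in the genome, did not pass (0.06 ± 0.08, 95% interval -0.10 to 0.22, adjusted p = 0.598), and its lowest, median and highest values were 36.01, 42.9 and 72.04 CPM in males and 38.9, 46.04 and 52.3 CPM in females. Mx1 did not pass either (0.49 ± 0.31, adjusted p = 0.211).

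None of the 3 immunity-related GTPases passed. Irgm1 had an estimate of 0.35 ± 0.15 (adjusted p = 0.0614), Igtp 0.48 ± 0.23 (adjusted p = 0.102) and Ifi47 0.45 ± 0.19 (adjusted p = 0.0577). Without the library labelled female WT replicate 2 the estimates were 0.16, 0.15 and 0.21 (adjusted p = 0.0769, 0.249 and 0.138).

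Of the other induced genes 4 of 5 rose. Ifi44 was at 9.76, 10.4, 11.3, 10.7 and 11.2 CPM in male WT, 9.88, 11.3, 12.3, 11.1 and 11.8 CPM in male Q and 12.8, 11.3, 10.7, 13.7 and 13.3 CPM in male R. Among females it stood at 16.6, 19.6, 15.8, 14.8 and 14.8 CPM in WT, 13.3, 14.6, 14.5, 12.4 and 17.6 CPM in Q and 12.6, 15.1 and 12.9 CPM in R. In WT and Q the sexes did not overlap, and in R they did. The log2 difference was 0.37 ± 0.07 over genotypes (adjusted p = 3.29e-05), 0.62 ± 0.11 in WT (adjusted p = 9.09e-05) and 0.36 ± 0.11 in Q (adjusted p = 0.0145). The Q call was lost without female Q replicate 5 (0.27, adjusted p = 0.0594) and with no filter on low counts (0.37, adjusted p = 0.0911).
Rtp4, a chaperone of membrane receptors, rose (0.67 ± 0.15, adjusted p = 5.02e-04), as did Xaf1, which favours cell death (0.48 ± 0.13, adjusted p = 0.00293). Ifi27 had its lowest, median and highest values at 37.4, 41.99 and 89.8 CPM in males and 54.4, 62.7 and 99.01 CPM in females (0.46 ± 0.12, adjusted p = 0.00194), the highest male value being that of male Q replicate 4. Ifi35 did not pass and had a negative estimate (-0.20 ± 0.11, adjusted p = 0.134).

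**Figure D4:**
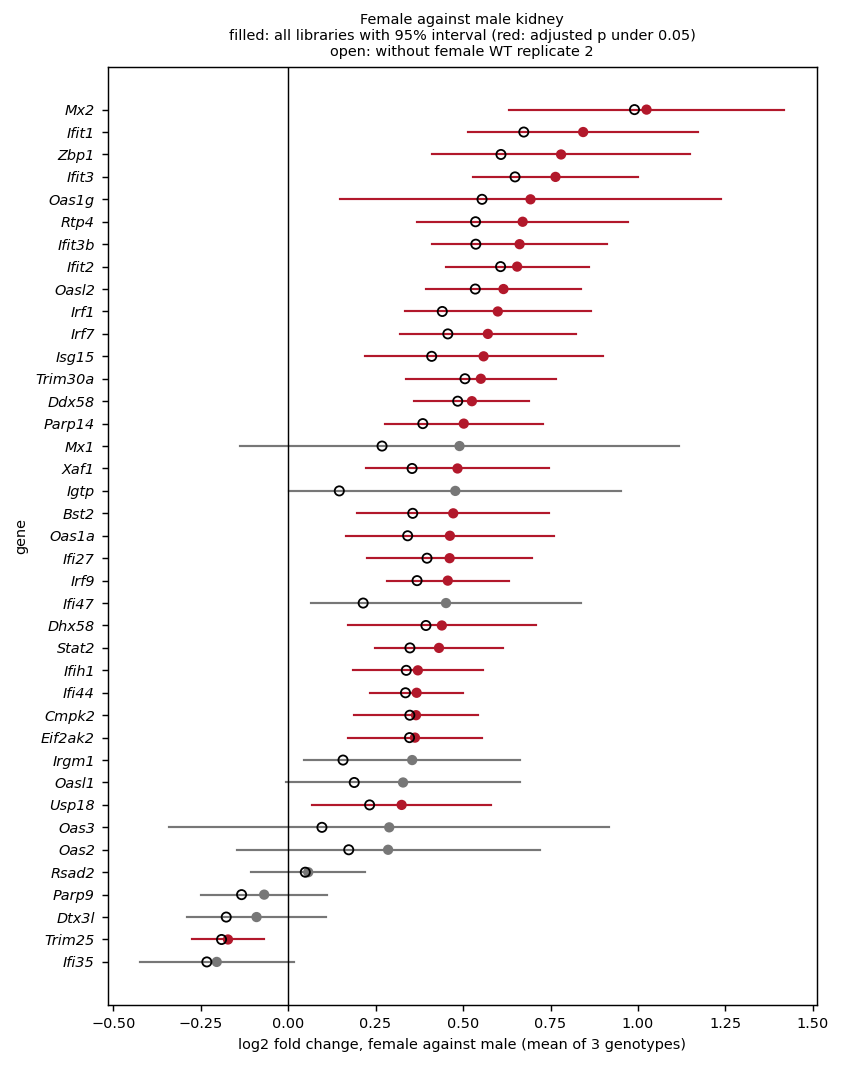
Log2 fold change of female against male kidney, as the mean of the 3 genotypes, for the 39 genes with 95% intervals (filled points, red where adjusted p is under 0.05) and without the library labelled female WT replicate 2 (open points). Estimates run from -0.20 for Ifi35 to 1.02 for Mx2, and open points lie closer to 0 than filled ones for most genes.

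The same comparison within each genotype rested on 8 or 10 libraries. In WT 22 of the 39 genes were higher in females (8.31% of all tested genes) and none was lower (8.22%), with a median log2 fold change of 0.64. Only 8 were called higher (6.48%) without the library labelled female WT replicate 2, with a median of 0.36, and without male WT replicate 4 there were 14. The 8 were Ddx58, Irf1, Irf7, Irf9, Ifit2, Ifit3, Oasl2 and Ifi44. Without the library labelled female WT replicate 2 the WT log2 fold changes were 0.59 for Ddx58, 0.61 for Ifit2, 0.57 for Oasl2 and 0.53 for Ifi44. In Q 13 genes were higher (11.2%) and 1 lower (11.9%), with a median of 0.44, and without male Q replicate 1, male Q replicate 3 or female Q replicate 5 there were 9 calls in either direction. Without the library labelled female WT replicate 2, which enters the Q and R contrasts only through the shared filter, scaling and error estimate, 21 genes were higher in Q (11%) and 6 in R (6.93%). In R 3 genes were higher (7.01%) and none lower (7.07%), with a median of 0.38, and the count was 1 without male R replicate 3, female R replicate 1 or female R replicate 2. For single libraries left out, other than the one labelled female WT replicate 2, the shares of all tested genes are not given here. Females were wholly above males for 8 genes in WT (7.27% of all tested genes), 9 in Q (6.37%) and 14 in R (12.1%), and wholly below for 0 in WT (9.87%), 1 in Q (6.98%) and 1 in R (11.8%). The difference of the sex effect between genotypes was tested by interaction terms, which called 0 of the 39 genes, so the unequal counts of calls do not show that the sex difference varied with genotype.

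Upstream genes of the pathway were followed on lists of their own, whose counts stand beside 21.3% of all tested genes higher and 18.9% lower in females. A count near these shares is not read as a result about its list. Median log2 fold changes were 0.01 for receptors and Janus kinases, 0.10 for other transcription factors, 0.15 for upstream sensors and adaptors, -0.02 for genes that restrain the pathway, 0.32 for antigen presentation and 0.51 for chemokines, beside 0.04 over all tested genes. Without the library labelled female WT replicate 2 they were -0.0021, 0.07, 0.15, -0.04, 0.19 and 0.39 in the same order. Of the 10 interferon genes listed as ligands none passed the filter on low counts, and over all 28 libraries Ifnb1 had 0 counts and Ifng 31, which for Ifnb1 allows up to 3 counts in all. Of 9 receptor and Janus kinase genes 3 rose: Il10rb, a chain of the type III receptor (0.36 ± 0.06, adjusted p = 5.29e-06), Ifnar2, a chain of the type I receptor (0.28 ± 0.05, adjusted p = 6.19e-05), and the kinase Jak2 (0.39 ± 0.08, adjusted p = 2.97e-04). Of 6 other transcription factors 2 rose, Irf8 of myeloid cells (0.39 ± 0.07, adjusted p = 6.21e-05) and Stat3 (0.16 ± 0.06, adjusted p = 0.0214), the latter not without the library labelled female WT replicate 2 (adjusted p = 0.05702). Of 12 upstream sensors and adaptors 4 rose, among them the RNA sensors Tlr7 (0.79 ± 0.18, adjusted p = 8.53e-04) and Tlr3 (0.33 ± 0.09, adjusted p = 0.00327) and the adaptor Mavs (0.20 ± 0.06, adjusted p = 0.00561).
Of 7 genes that restrain the pathway 1 rose, Socs1 (0.59 ± 0.20, adjusted p = 0.0164), and 2 fell, the phosphatase Ptpn1 (-0.34 ± 0.05, adjusted p = 5.51e-06) and Pias4 (-0.27 ± 0.08, adjusted p = 0.00966).
Downstream, 13 of 16 other induced antiviral genes rose and none fell, with a median log2 fold change of 0.47. Gbp3, a guanylate-binding protein, was at 5.85 to 11.6 CPM in males and 42.7 to 90.4 CPM in females, with no overlap, a 7.302-fold difference (log2 2.87 ± 0.12, adjusted p = 5.24e-18). It exceeded any of the 39 members, whose largest fold was 2.03. Guanylate-binding proteins are near-identical copies in part, so reads could be split between them. Tor3a (0.62 ± 0.08, adjusted p = 9.14e-08), Lgals3bp (0.55 ± 0.09, adjusted p = 5.38e-06) and Gbp7 (0.65 ± 0.13, adjusted p = 1.27e-04) followed.
Of 14 antigen presentation genes 5 rose, including B2m, the shared chain of class I molecules (0.47 ± 0.09, adjusted p = 1.60e-04), the peptide transporters Tap1 (0.72 ± 0.17, adjusted p = 9.49e-04) and Tap2 (0.44 ± 0.10, adjusted p = 7.53e-04) and the proteasome subunit Psmb9 (0.56 ± 0.16, adjusted p = 0.00471). Of 5 tested chemokines Cxcl10 rose (0.65 ± 0.19, adjusted p = 0.00717).

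Markers of cell types were counted against the same shares of all tested genes, 21.3% higher and 18.9% lower. Of the immune and adipocyte lists, the macrophage, B and plasma cell, neutrophil and adipocyte markers had smaller shares called higher than all tested genes. Of 7 macrophage markers 1 rose, Adgre1 (0.32 ± 0.12, adjusted p = 0.0371), and 0 without the library labelled female WT replicate 2. The summed macrophage markers ranged from 60.8 to 127 CPM in males and from 67.2 to 104 CPM in the females other than that library. The highest male sum was in male Q, and male WT and male R reached 83.1 and 85.8 CPM. Of 8 tested T and NK cell markers 2 rose, Cd4 (0.87 ± 0.26, adjusted p = 0.00764) and Gzma (0.69 ± 0.25, adjusted p = 0.0311), and only Cd4 without that library, with sums of 3.24 to 9.27 CPM in males and 5.44 to 7.91 CPM in those females. Of 6 B and plasma cell markers 1 rose, Jchain (0.47 ± 0.18, adjusted p = 0.0418), and 0 without that library, with sums of 5.58 to 20.5 CPM in males and 5.12 to 13.6 CPM in those females. None of the 3 tested neutrophil markers (sums 0.484 to 3.34 CPM in males and 0.566 to 2.59 CPM in those females) and none of the 5 tested adipocyte markers (30.4 to 181 CPM and 46.1 to 159 CPM) passed. Median sums in males and those females were 72.6 and 81.8 CPM for macrophage and 4.80 and 6.49 CPM for T and NK cell markers. They were 8.49 and 11.7 CPM for B and plasma cell, 1.22 and 1.17 CPM for neutrophil and 54.8 and 71.3 CPM for adipocyte markers. Of the 4 plasmacytoid dendritic cell markers the 2 that rose were Irf8 and Bst2, and Siglech and Ccr9 stayed at or under 1.001 CPM in every library. Of 6 endothelial markers 2 rose, Tek (0.34 ± 0.06, adjusted p = 1.36e-05) and Pecam1 (0.26 ± 0.07, adjusted p = 0.00246), with sums of 262 to 329 CPM in males and 284 to 366 CPM in those females. Of 9 kidney segment markers 7 rose, such as Atp6v1b1 of intercalated cells (0.49 ± 0.06, adjusted p = 1.93e-08), and 1 fell, Slc34a1 of the proximal tubule (-0.51 ± 0.06, adjusted p = 5.37e-08). Lrp2, also of the proximal tubule, went the other way, with medians of 1320 CPM in males and 1707 CPM in females. The part of these cell types in the sex difference was not tested.

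The Aqp3 forms were compared in 9 contrasts, within each sex and over both, which share the WT, Q or R libraries. No member of the set, and no gene of the table, was called between Aqp3 forms in any of them, nor did the 2 interactions of sex and form call any. DESeq2 and limma's voom also called 0 of the 39 genes in each of these 11 contrasts.
In males the median log2 fold change of the 39 genes was 0.04 for Q against WT, 0.11 for R against WT and -0.05 for Q against R. Estimates were above 0 for 24 of 39 genes in Q against WT (51.2% of all tested genes), 26 in R against WT (49.3%) and 15 in Q against R (53.8%). At an unadjusted p under 0.05 there were 0 members (5.1%), 1 (2.13%) and 0 (4.1%). The medians moved with single libraries: Q against WT to -0.045 without male WT replicate 2, R against WT to 0.047 without male R replicate 5, and Q against R to -0.134 without male Q replicate 4 and to -0.0058 without male R replicate 5. Without the 3 libraries that stood apart, an unadjusted p under 0.05 was found for 6 members in Q against R, all lower (6.52%), and for 5 in R against WT, all higher (2.8%), and none was called.
In females 32 of 39 estimates lay below 0 for Q against WT (51.3% of all tested genes) and 31 of 39 for R against WT (51.2%), with medians of -0.18 and -0.22. Without the library labelled female WT replicate 2 they turned, to 27 of 39 above 0 for Q (50.9% of all tested genes) and 24 of 39 for R (50%), with medians of 0.07 and 0.04. Q against R, which does not use that library's group mean, had 25 of 39 above 0 (49.5%) and a median of 0.07. Unadjusted p was under 0.05 for 3 members in Q against WT, all lower (1.67%), for 5 in R against WT, all lower (1.22%), and for 0 in Q against R (3.03%). With the library labelled female WT replicate 2 left out there were 0 lower (1.43%) and 1 higher (1.28%) in Q against WT, and 0 lower (1.15%) and 1 higher (0.799%) in R against WT.
Over both sexes the medians were -0.08 for Q against WT, -0.08 for R against WT and -0.02 for Q against R, and 0.06, 0.05 and -0.02 without that library. Unadjusted p was under 0.05 for 2 members, 0 and 0 (4.72%, 1.34% and 3.93% of all tested genes), and without that library for 3 in Q against WT (3.99%) and 2 in R against WT (1.3%). For the interactions the medians were -0.21 for Q and -0.31 for R, and 0.07 and -0.06 without that library. There 0 members for Q (3.11%) and 4 for R (2.82%) had an unadjusted p under 0.05, and without that library 2 did for R (2.92%).

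**Figure D5:**
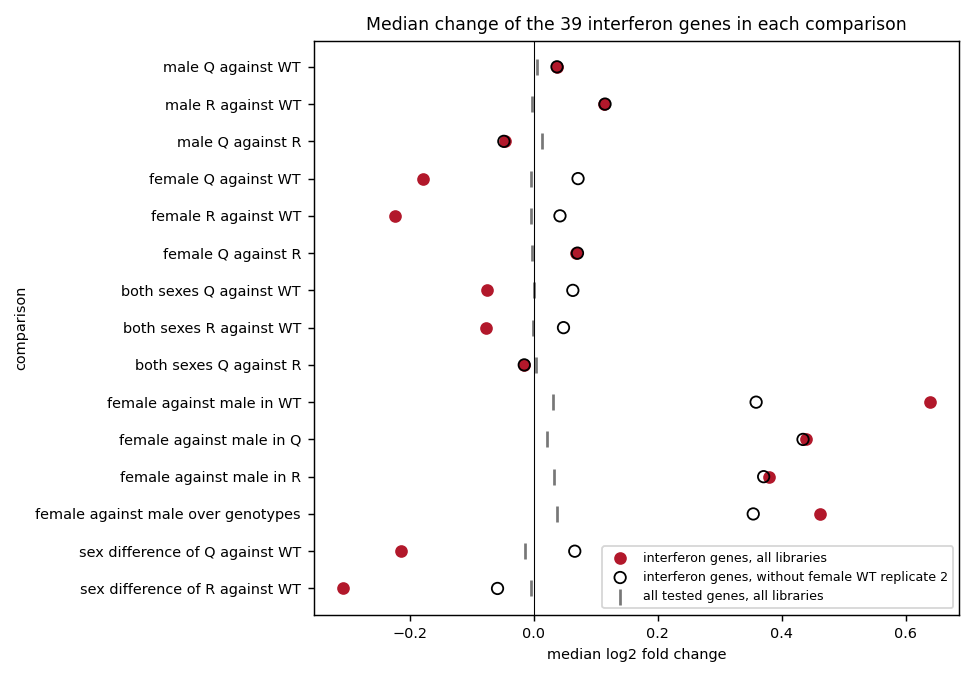
Median log2 fold change of the 39 genes in each of the 15 comparisons with all libraries (filled) and without the library labelled female WT replicate 2 (open), beside the median over all tested genes with all libraries (grey ticks). The medians of the female comparisons with WT, -0.18 and -0.22, move to 0.07 and 0.04 without that library, and the sex comparisons stay between 0.35 and 0.64 either way.

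The members with the smallest p in the males were mostly genes of low level. For Q against WT, Oas1g was at 0.503, 0.413, 0.581, 0.392 and 0.353 CPM in WT and 0.673, 1.14, 0.212, 1.68 and 0.542 CPM in Q (0.88 ± 0.47, adjusted p = 0.917). The Q libraries spread on either side of all WT libraries, from replicate 3 at the bottom to replicate 4 at the top, and without replicate 4 the estimate was 0.47. Rsad2 was at 36.01, 36.5, 37.1, 41.8 and 49.6 CPM in male WT and 45.005, 37.6, 44.6, 72.04 and 36.5 CPM in male Q (0.23 ± 0.13, adjusted p = 0.917). Male Q replicate 4 alone stood clear of the WT range, and without it the estimate was 0.02. Trim30a, whose values are given above, had an estimate of -0.30 ± 0.18 with overlapping groups (adjusted p = 0.917).
For R against WT, Oas2 was at 1.11, 1.24, 1.21, 1.31 and 0.646 CPM in WT and 2.31, 3.11, 1.07, 2.31 and 1.08 CPM in R (0.84 ± 0.36, adjusted p = 0.9997). R replicates 1, 2 and 4 were above all WT libraries and R replicates 3 and 5 within their range. Ifi44 (0.21 ± 0.11) and Oas1g (0.82 ± 0.47) followed (adjusted p = 0.9997 for either), and the groups overlapped in both.
For Q against R, Usp18 was at 2.301, 2.97, 2.76, 4.67 and 2.82 CPM in Q and 4.86, 3.72, 3.97, 3.52 and 3.76 CPM in R (-0.36 ± 0.21, adjusted p = 0.9999). All Q libraries but replicate 4 were below all R libraries, and without that replicate the estimate was -0.55. Mx1 was at 0.168, 0.695, 0.584, 0.311 and 0.271 CPM in Q and 0.608, 1.27, 0.5603, 0.865 and 0.376 CPM in R (-0.87 ± 0.53), and Trim30a had an estimate of -0.30 ± 0.18 (adjusted p = 0.9999 for either). Both overlapped between the groups.

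In the female comparisons with WT, several estimates moved toward 0 or turned without the library labelled WT replicate 2. For Q against WT, Parp9, which with Dtx3l adds ADP-ribose to ubiquitin, was at 18.01, 29.8, 20.9, 17.1 and 17.3 CPM in WT and 14.9, 14.6, 19.5, 15.6 and 10.97 CPM in Q (-0.45 ± 0.15, adjusted p = 1). All Q libraries but replicate 3 were below all WT libraries, and without the library labelled WT replicate 2 the estimate was -0.27. Igtp was at 17.6, 106, 17.7, 18.1 and 19.96 CPM in WT and 18.4, 21.8, 21.2, 17.8 and 21.5 CPM in Q (-0.84 ± 0.37, adjusted p = 1). The Q libraries lay among or above the 4 other WT libraries, and without the library labelled WT replicate 2 the estimate was 0.14, of the opposite sign. Irf9 had an estimate of -0.31 ± 0.14, or -0.06 without it (adjusted p = 1 with it).
For R against WT, Ifi44 (-0.27 ± 0.12) was at the values given above, with R replicate 2 inside the WT range and the other 2 R libraries below it. Igtp was at 16.9, 17.4 and 19.5 CPM in R (-1.01 ± 0.45), and without the library labelled WT replicate 2 the estimate was -0.03. Zbp1 was at 3.15, 8.801, 2.39, 3.69 and 2.56 CPM in WT and 2.69, 2.21 and 2.51 CPM in R (-0.74 ± 0.34), or -0.24 without that library, and the groups overlapped. Adjusted p was 1 for each of the 3 genes. Eif2ak2 was the 1 member whose 3 R libraries were all above all 5 WT libraries, where 1.89% of all tested genes were. It is named because it was alone in this, and its estimate was 0.32 ± 0.18 (adjusted p = 1).
For Q against R, Usp18 was at 4.82, 5.61, 3.87, 3.55 and 5.59 CPM in Q and 2.88, 4.23 and 2.99 CPM in R (0.48 ± 0.24, adjusted p = 0.998). R replicate 2 lay inside the Q range and the other 2 R libraries below it. Ifi27 was at 59.7, 75.4, 62.7, 67.7 and 87.1 CPM in Q and 62.1, 54.4 and 55.7 CPM in R (0.30 ± 0.22), where R replicates 2 and 3 were below all Q libraries, and Mx2 had an estimate of -0.44 ± 0.34 (adjusted p = 0.998 for either). Ifi35 was the 1 member with all Q libraries above all R libraries (1.41% of all tested genes), with an estimate of 0.25 ± 0.21 (adjusted p = 0.998).
None of the pathway genes was called between Aqp3 forms either. The intervals limit what these comparisons could show. The 95% interval of Ifit3 was -0.33 to 0.45 for male Q against WT and -0.60 to 0.17 for female Q against WT. The female interval was -0.18 to 0.41 without the library labelled female WT replicate 2. None of these reached the log2 difference of 0.76 that Ifit3 had between the sexes. That of Isg15 was -0.54 to 0.63 and -0.53 to 0.57, and both reached its sex difference of 0.56, as did the female interval without that library, -0.04 to 0.94.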

How the data were processed

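Kidney poly-A RNA of 28 mouse libraries was analysed from 1 table of raw gene counts deposited by the authors. The counts were made with featureCounts 2.0.1 on GRCm39 and Ensembl 107, per the file headers, with no strand option and multi-mapping fragments left out by default. Trim Galore 0.6.7, SAMtools 1.6, Subread 2.0.1 and DESeq2 1.38.3 are named in the submitters' processing notes, and the aligner is not given in the sources used here. Symbols and exon lengths came from GENCODE on GRCm38, which gave 52073 of 56748 genes a symbol, and promoters from RefSeq on GRCm38.p6.

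Groups were taken from the labels. Genes were filtered on low counts over the 6 groups (filterByExpr), leaving 17573 with 99.91% of the counts. They were scaled by TMM and fitted with group means in 1 robust quasi-likelihood model with 22 residual degrees of freedom (edgeR 4.0.16, R 4.3.3). All 15 contrasts were tested in it, each with Benjamini-Hochberg adjustment over all tested genes. The fit was also run on simulated counts, drawn independently for each gene and with no library that stood apart. The outcome is not given here. The run does not bear on a library such as the one labelled female WT replicate 2. Library totals of 14825417 to 21403804 counts set the precision, and genes counted with few fragments are the least precise.

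The members and the pathway and marker lists (133 genes, 117 tested) were chosen with earlier results of these data known. The values of 1 listed pathway gene are not reported here. Values in every library are given for members called in a sex contrast (at most 8 per contrast, by smallest p) and for the 3 members of smallest p in each contrast of Aqp3 forms within a sex and in the WT sex contrast. Of each pathway list, called genes are named (at most 4). Alternatives were DESeq2 1.42.0, its size factors, limma 3.58.1 voom with quality weights, no filter, the replicate number as a block, and leaving out libraries. Leaving out all 3 libraries that stood apart was chosen after seeing the data.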

Additional observations from a re-analysis of the deposited data

Results flagged for a closer look

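A library was picked out where the highest or lowest value of a gene lay far from the other 4 of its group by Dixon's test. This was so for 31 of 195 combinations of gene and group (15.9%), where chance gives about 1 in 20. The genes of 1 library are not independent of each other. Groups of 3, here female R, were not examined.

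The library labelled female WT replicate 2 gave 17 of the 31, each the highest of its group. It was the highest of female WT for 36 of the 39 genes and for 22.7% of all tested genes. Its sensor Zbp1 was at 8.80 CPM, and the transcription factors Irf1, Irf9 and Stat2 were at 65.1, 45.8 and 38.3 CPM. Ifit1 was at 18.3 CPM, Ifit3b at 21.5 CPM and Oasl2 at 18.5 CPM. Isg15 was at 8.94 CPM, Usp18 at 7.77 CPM, Parp14 at 35.95 CPM and Dtx3l at 18.8 CPM. The GTPases Irgm1, Igtp and Ifi47 were at 151, 106 and 30.2 CPM. Bst2 was at 52.4 CPM, Ifi27 at 99.01 CPM and Xaf1 at 11.98 CPM.

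Male Q replicate 4 gave 7. This library was the highest of male Q for 13 of the 39 genes and for 36.4% of all tested genes. Its flags are therefore not read as a result about the 39 genes. Male Q replicate 4 was the lowest male Q library for Ifit2, at 7.28 CPM. It was the highest for Ifit3 at 27.1 CPM, Usp18 at 4.67 CPM, Rsad2 at 72.04 CPM, Bst2 at 31.3 CPM, Ifi27 at 89.8 CPM and Ifi35 at 32.1 CPM.

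The other 7 were spread over 6 libraries, each the highest of its group. Female Q replicate 3 stood apart for Oasl2 at 14.01 CPM and Mx1 at 1.56 CPM. Male R replicate 1 did so for Irf9 at 20.6 CPM, and male R replicate 5 for Irgm1 at 52.2 CPM. Male WT replicate 5 stood apart for Mx1 at 1.12 CPM and male WT replicate 4 for Ifi27 at 52.8 CPM. Male Q replicate 5 did so for Rtp4 at 8.67 CPM.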

How the results depend on the processing

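For the sex difference over genotypes 26 to 30 of the 39 genes were called in either direction when each library was left out in turn, with medians of 0.35 to 0.50, and 26 to 30 under the other settings. Within genotypes the counts depended more on single libraries. In WT 8 to 26 genes were called with 1 library of that comparison left out, and the median ranged from 0.36 to 0.73. Over the libraries of each comparison the range was 9 to 14 in Q and 1 to 3 in R. Without the library labelled female WT replicate 2, which is in neither, 21 were called higher and 1 lower in Q and 6 higher in R. Of all tested genes 11% were then higher in Q and 6.93% in R. For the other libraries left out these shares are not given here, so the ranges show only how far the counts moved. Between Aqp3 forms 0 were called with any 1 library of the comparison left out. Of the pathway genes, 23 were called in either direction in WT (13 to 23 with 1 library left out), 12 in Q and 6 in R (2 to 6). Their lists held 9, 6, 12, 7, 16, 14 and 5 tested genes. Of all tested genes 8.31% were higher and 8.22% lower in WT, 11.2% and 11.9% in Q, and 7.01% and 7.07% in R. The pathway counts in Q and R are not read as results about the lists.

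With no filter on low counts 8 members were called in Q and 15 pathway genes in WT. With voom 10 members were called in R, 21 pathway genes in Q and 13 in R. Without male Q replicate 4 and female Q replicate 5 together 7 members were called in R. For these settings the shares of all tested genes are not given here. Without all 3 libraries that stood apart 12 members were called in WT, all higher, and the WT median was 0.36. In WT 1626 of 17381 genes were then higher and 1981 lower. In R 11 members were called, 10 higher and 1 lower, where 1858 of all genes were higher and 2334 lower. Pathway genes called were 22 in Q and 14 in R, where 2085 of all genes were higher and 2268 lower in Q. The counts in R are not read as results about the lists. The cause of these shifts was not tested.

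Medians of the comparisons with female WT followed the library labelled female WT replicate 2. With 1 library left out they ran from -0.268 to 0.0717 for female Q against WT, from -0.285 to 0.0425 for female R against WT, from -0.283 to 0.0664 for the interaction of Q and from -0.447 to -0.0582 for that of R. Without the 3 libraries they were 0.0693, 0.0439, 0.0723 and -0.0596. Igtp in female Q against WT turned from -0.84 to 0.14 without that library and to 0.11 without all 3, and ranged from -1.01 to 0.14 with 1 library left out.

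The replicate numbers did not pair the libraries, as same-numbered libraries had a mean correlation of -0.00327 (65 pairs, -0.29 to 0.21) and 5 of 28 correlated best with their own number. With the replicate number as a block 26 members were called between the sexes over genotypes, 18 in WT, 16 in Q and 4 in R, and no named call changed. The shares of all tested genes with this block are not given here. Genes of low counts, such as Oas3 and Mx1, are limited by depth.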
